A study of Mus musculus with 25 samples.

Results

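Growing myoblasts that lacked MyoD were compared directly with growing myoblasts that lacked p53. Each genotype had 3 mouse samples, lettered A, B and C, and the 6 samples were all those of both knockouts among the 9 of the series. Their RNA was read on the chip types U74Av2 and U74Cv2, which gave 12 of the 25 arrays, and all 24290 probe sets other than controls entered. The 3 wild type samples served for the estimate of the spread and as levels to set beside both knockouts.

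The cells were satellite cell-derived myoblasts, the cultured progeny of the stem cells of adult skeletal muscle. MyoD-/- cells lacked both copies of the gene for MyoD, p53-/- cells lacked both copies of the gene for p53, and wild type cells carried neither knockout. The medium of all 3 genotypes was Ham's, supplemented with 4 ng/ml bFGF and 20% fetal calf serum, on collagen-coated plates, and the cells were enriched by preplating and passaging. The labels put the purity above 98%, judged by Myf5 and c-met in both knockouts and by desmin, Myf5 and MyoD in wild type. The extraction entry reads "Trizol" for MyoD-/- and "Trizol x2" for p53-/-, so genotype and extraction cannot be told apart. The sources used here give neither the age or strain of the mice nor what the letters stand for. The p-values therefore reflect the spread among these samples, which may be technical.

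MyoD is a basic helix-loop-helix transcription factor that commits cells to the muscle lineage and turns on genes of contraction and of the nerve-muscle synapse through short DNA elements called E-boxes. Myf5 is its closest relative and can stand in for it in development, while myogenin acts later, at the onset of differentiation. p53 is a transcription factor that stress such as DNA damage makes active, and its targets include the cell cycle inhibitor p21 (Cdkn1a) and its own inhibitor Mdm2. It restrains division and can trigger cell death.

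The values are MAS5 signals, which have no counts behind them, and precision is limited by how many arrays there are. Median signals of the 12 arrays were 460 to 560 in MyoD-/- and 455 to 550 in p53-/-, and p53-/- C had the lowest median and the highest 3' to 5' ratio of Gapdh on both chip types (0.879 and 0.946). MyoD-/- A was scanned on another day than the other arrays used. On U74Cv2 the chip lot differed in part between the knockouts: MyoD-/- B and C shared a lot with p53-/- A, p53-/- B and C were on another, and that of MyoD-/- A is not recorded. The U74Cv2 array titled MyoD-/- B names letter A within its own record and was used as B, so letters of MyoD-/- samples on that chip type are less certain. Between arrays of a knockout Pearson's r over probe sets was 0.949 to 0.974 on U74Av2 and 0.908 to 0.934 on U74Cv2, against 0.869 to 0.907 and 0.864 to 0.9 between the knockouts. Fold changes are MyoD-/- over p53-/- on the log2(signal + offset) scale with limma standard errors (SE), and a call is a Benjamini-Hochberg adjusted p under 0.05 over all 15767 probe sets tested.

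Of these probe sets 2045 (13.0%) were called, 977 higher and 1068 lower in MyoD-/- than in p53-/-. Differences of at least 2-fold were found in 552 called higher and 338 called lower, and differences of at least 8-fold in 50 and 19. Taken per gene, with 1 probe set each, 1451 of 9013 genes tested (16.1%) were called. Of these, 690 (7.66%) were higher and 761 (8.44%) lower in MyoD-/-, and the median log2 fold change over all genes was 0.00. These shares are the background for the counts of every gene list below. The 3 arrays of one knockout did not overlap the 3 of the other in 3116 genes (34.6%).

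Myod1 itself was lower in MyoD-/-. Its signal was 5352, 4024 and 5152 in MyoD-/- A, B and C and 23450, 24450 and 18500 in p53-/- A, B and C. The groups did not overlap, and the log2 fold change was -2.18 (SE 0.15, adjusted p = 1.71e-05), with 37440 to 45190 in wild type. The sources used here do not place the probes relative to the deleted part of the gene, so the signal left in MyoD-/- was not interpreted. Neither Trp53, the p53 gene, nor the p53 target Bax could be read from a probe set naming 1 gene, and both were not analysed here, so the p53-/- label was not checked by its own gene.

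The muscle regulators did not move as a block. Of 32 myogenic regulators tested, of 38 on the chips, 7 (21.9%) were called lower and 5 (15.6%) higher in MyoD-/-, with a median log2 fold change of -0.07. Over all genes 8.44% were lower and 7.66% higher. Myf5 gave 3548, 3419 and 6026 in MyoD-/- and 6009, 5032 and 4216 in p53-/-, which overlap, and was not called (-0.26, SE 0.50, adjusted p = 0.804). Both knockouts were above wild type, where Myf5 was 165 to 1041. Myog, the gene for myogenin, gave 291, 281 and 438 in MyoD-/- and 2612, 2746 and 254 in p53-/-. Its fold change of -1.76 (SE 0.68) was not called (adjusted p = 0.124), and p53-/- C lay below all MyoD-/- samples while p53-/- A and B lay above them. Without p53-/- C the fold change was -2.79 and passed the test (adjusted p = 0.000784).

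Other regulators that were lower in MyoD-/- included Pitx3, a homeobox factor of differentiating muscle, which had 531, 101 and 110 in MyoD-/- and 3215, 1656 and 2637 in p53-/- (log2 fold change -3.25, SE 0.45, adjusted p = 0.00121). Its groups did not overlap. Eya2, a transcriptional coactivator, fell by 1.85 (SE 0.25, adjusted p = 0.00101), and Id3, an inhibitor of basic helix-loop-helix factors, fell by 1.31 (SE 0.19, adjusted p = 0.00142). Higher regulators were Twist1 and Twist2, which in mouse hold back MyoD, with Nfix, Nfia and Mef2a. The Twist2 call was lost with scan day as a block and without MyoD-/- A or B (adjusted p up to 0.0639). Twist1 had 3253, 3711 and 2987 in MyoD-/- and 791, 375 and 270 in p53-/- (log2 fold change 2.74, SE 0.32, adjusted p = 0.000525). Wild type lay at 259 to 489, close to p53-/-.

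Genes of satellite cell identity split. Cdh15, the gene for M-cadherin, had 545, 486 and 508 in MyoD-/- and 1635, 2018 and 1383 in p53-/- (-1.57, SE 0.19, adjusted p = 0.000699). Met, the gene for the hepatocyte growth factor receptor c-met that the labels name as a purity marker, had 763, 436 and 510 in MyoD-/- and 1368, 1389 and 977 in p53-/- (-1.06, SE 0.22, adjusted p = 0.00964). Both genes were lower in every MyoD-/- sample than in any p53-/- sample. Cd34, a surface sialomucin of quiescent satellite cells and of other progenitors, went the other way, with 3239, 1360 and 826 in MyoD-/- and 343, 161 and 294 in p53-/- (2.32, SE 0.49, adjusted p = 0.0108). Wild type had 32.3 to 205.

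Over the whole list of fusion, adhesion and satellite cell surface genes, 12 (35.3%) were higher and 5 (14.7%) lower of 34 tested, with a median of 0.31. The lower members were Cdh15, Met, Cdon, Ncam1 and Cxcr4, of which Cdon is a coreceptor that promotes myogenic differentiation and Ncam1 the neural cell adhesion molecule. The higher members with the largest fold changes were Itgbl1, an integrin beta-like protein (4.48), Cdh11, the gene for a mesenchymal cadherin (3.42), Cd34 (2.32) and Itga6, an integrin chain that binds laminin (1.94). A second probe set of Cdon gave -0.12 and was not called.

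Of 28 sarcomere and contraction genes tested, of 39 on the chips, 6 (21.4%) were lower and 0 higher, with a median of -0.25, and 22 were not called. At an unadjusted limma p under 0.05 the counts were 7 lower and 2 higher. Desmin, the muscle intermediate filament and a purity marker of wild type, had a Des signal of 200, 79.5 and 305 in MyoD-/- and 1583, 1726 and 839 in p53-/- (-2.51, SE 0.33, adjusted p = 0.000991). Mylk4, a myosin light chain kinase, had 19.9, 50.4 and 44.1 in MyoD-/- and 1254, 4806 and 1018 in p53-/- (-3.77, SE 0.54, adjusted p = 0.00141). The MyoD-/- signals of Mylk4 are below the offset of 106.4, so its fold change is understated.

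Actn3, the fast-fibre alpha-actinin, fell by 1.64 (SE 0.27, adjusted p = 0.00303), Myl1, an essential myosin light chain, by 1.57 (SE 0.36, adjusted p = 0.0158), and Tnnc1, the slow and cardiac troponin C, by 1.93 (SE 0.46, adjusted p = 0.0203). A second probe set of Actn3 gave -0.38 and was not called, and the Myl1 call was lost with scan day as a block (adjusted p = 0.0502). Tpm2, a tropomyosin, fell by 0.54 (SE 0.15, adjusted p = 0.0427). For all 6 called genes wild type lay above both knockouts: Myl1 had 4874 to 10150 in wild type, against 193 to 316 in MyoD-/- and 553 to 1624 in p53-/-. With scan day as a block 3 genes of the list were lower, and up to 2 were higher in single alternative settings. Of 25 genes of excitation, calcium handling and muscle energy tested, 1 was higher (Pygm) and 1 lower (Ryr1), with a median of -0.09. Each count is 4.0% of the list, below the shares over all genes. Both of those calls were lost in 7 or more of the 20 alternative settings.

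**Figure D1:**
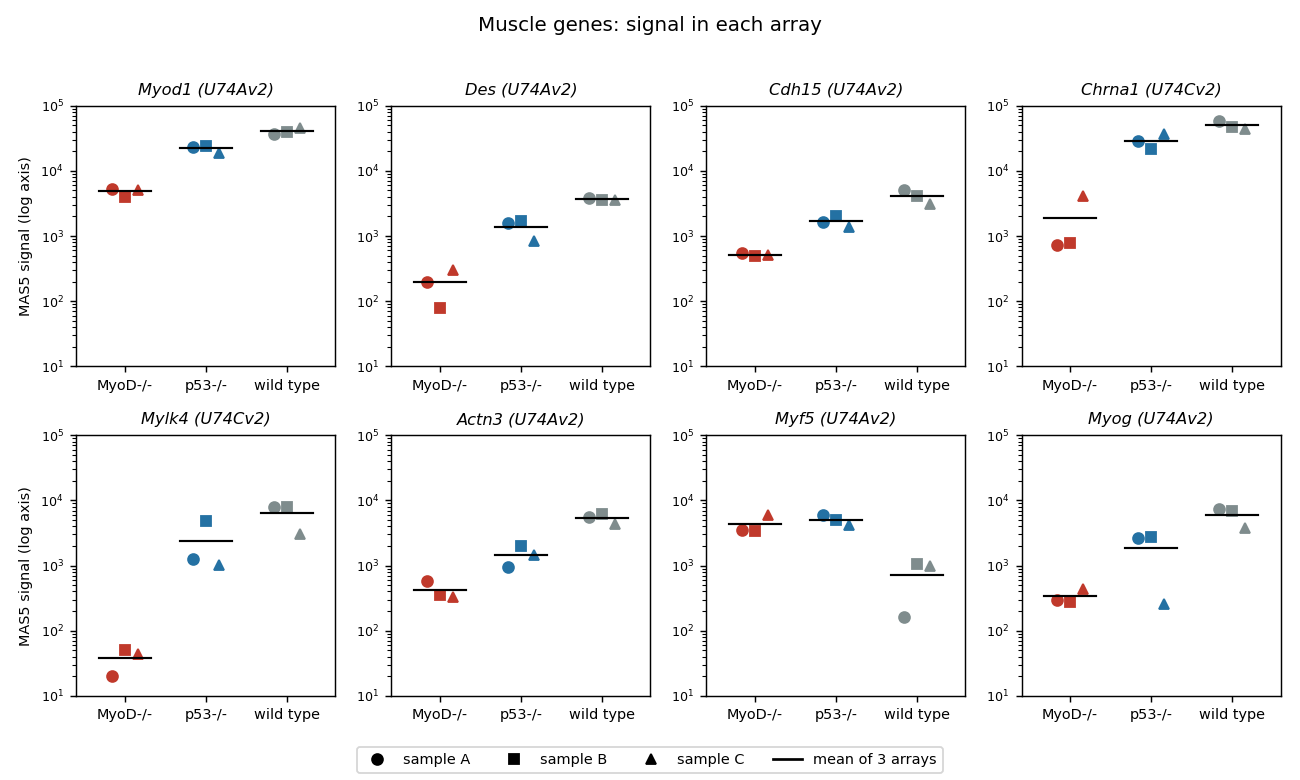
Signals of 8 muscle genes in each array, on a log axis, with MyoD-/- in red, p53-/- in blue and wild type in grey; symbols mark samples A, B and C and bars the mean of 3 arrays. Myod1, Des, Cdh15, Chrna1, Mylk4 and Actn3 are lower in every MyoD-/- sample than in any p53-/- sample, while Myf5 overlaps and Myog of p53-/- C (254) lies under the MyoD-/- range of 281 to 438.

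Subunit genes of the muscle acetylcholine receptor were lower in MyoD-/-. This receptor is a pentamer on the muscle surface that nerve endings activate, built in fetal muscle from the alpha, beta, gamma and delta subunits. All 4 of these subunit genes were called lower in MyoD-/-. Of the 12 genes of the acetylcholine receptor and synapse list tested, 5 (41.7%) were lower and 1 (8.33%) higher, with a median of -0.48. In 3 of the 20 alternative settings (the knockout arrays alone, no filter on low signals, and without p53-/- B) 3 were lower. Chrna1, the alpha subunit, had the largest negative fold change of any called gene on this scale, but with no offset Mylk4 (-5.69), Jag2 (-5.12), Lrrn1 (-4.65) and Reln (-4.58) lay beyond its -4.42.

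The 250 bases before the starts of Chrna1 and Chrng are printed because both genes fell and both stretches hold the E-box CAGCTG, a sequence that MyoD and its relatives bind. The sequences are from RefSeq, build GRCm38.p6, on the strand of the gene and 5′ to 3′, with CAGCTG in capitals. Chrna1 lies at chr2:73580339-73580588 on the minus strand and Chrng at chr1:87205561-87205810 on the plus strand.
Chrna1: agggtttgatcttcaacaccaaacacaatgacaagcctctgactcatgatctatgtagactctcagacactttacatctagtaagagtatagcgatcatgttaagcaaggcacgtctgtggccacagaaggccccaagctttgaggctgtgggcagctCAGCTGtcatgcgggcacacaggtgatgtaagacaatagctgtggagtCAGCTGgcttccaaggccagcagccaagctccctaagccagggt
Chrng: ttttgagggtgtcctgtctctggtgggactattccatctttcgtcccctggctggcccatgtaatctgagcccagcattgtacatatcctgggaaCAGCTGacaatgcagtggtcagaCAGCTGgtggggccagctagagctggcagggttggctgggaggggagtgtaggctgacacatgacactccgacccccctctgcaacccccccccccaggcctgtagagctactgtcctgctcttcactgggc

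CAGCTG starts 92 and 44 bases before the start of Chrna1, and 155 and 132 bases before that of Chrng. The window of Chrnb1 does not hold these letters. The motif reads the same on both strands and was counted wherever it stood, whether or not it overlapped another. Among the 7193 tested genes with a promoter in the RefSeq table, 13.9% held CAGCTG in this window, against 11.1% of 642 genes called lower and 16.5% of 563 called higher. Of the acetylcholine receptor and synapse list 6 of 9 held it, and of the sarcomere list 13 of 23. CAGGTG, counted on both strands, was in 18.9% of all windows, 18.1% of those called lower and 18.7% of those called higher. A match is a description of the sequence and not a measured binding site.

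Chrna1 had 738, 788 and 4066 in MyoD-/- and 28520, 21910 and 37170 in p53-/-. This was a 19.5-fold lower value (-4.29, SE 0.50, adjusted p = 0.000528), and its other probe set gave -4.50. Chrnd, the delta subunit, had 126, 34.8 and 463 in MyoD-/- and 1250, 1816 and 1140 in p53-/- (-2.72, SE 0.46, adjusted p = 0.00376). MyoD-/- C was the highest MyoD-/- sample for both genes and still lay below every p53-/- sample. Chrng, the gamma subunit, had 445, 93.8 and 595 in MyoD-/- and 906, 1398 and 1194 in p53-/- (-1.68, SE 0.43, adjusted p = 0.0287), and Chrnb1, the beta subunit, had 2171, 1791 and 3197 in MyoD-/- and 4804, 5469 and 5713 in p53-/- (-1.17, SE 0.18, adjusted p = 0.00255). The Chrng call was lost in 4 of 20 alternative settings, and its second probe set gave -0.93 without a call. Wild type was above both knockouts for these subunits, for instance 5316 to 8464 for Chrng. Utrn, the gene for utrophin, was the member called higher (0.75, adjusted p = 0.0454), and Musk and Rapsn, which cluster the receptor, were not called (-1.40 and -0.35).

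More p53 target genes were called higher than lower in MyoD-/-. Of 37 tested, of 43 on the chips, 15 were higher and 5 lower in MyoD-/-, with a median of 0.49, beside 7.66% higher, 8.44% lower and a median of 0.00 over all genes. Ccng1, the gene for cyclin G1, had 4376, 3630 and 4057 in MyoD-/- and 751, 780 and 676 in p53-/- (2.35, SE 0.16, adjusted p = 1.94e-05). Mdm2, which marks p53 for destruction, had 46510, 47430 and 29080 in MyoD-/- and 9018, 9969 and 10710 in p53-/- (2.01, SE 0.24, adjusted p = 0.000625). Its probe set on the other chip type gave 1.78. In both genes every MyoD-/- sample was above every p53-/- sample.

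Cdkn1a, the gene for the cell cycle inhibitor p21, had 6603, 4878 and 3640 in MyoD-/- and 966, 1887 and 1194 in p53-/- (1.86, SE 0.25, adjusted p = 0.00115). Phlda3, which restrains Akt signalling, had 17390, 11250 and 8765 in MyoD-/- and 3280, 3174 and 2464 in p53-/- (2.0, SE 0.23, adjusted p = 0.000525). Neither gene overlapped between the knockouts. Zmat3, a zinc finger RNA-binding protein, rose by 1.73 (SE 0.18, adjusted p = 0.000273), from 1 of its 2 probe sets, since the other gave 0.38 and was not called. Wild type was nearer MyoD-/- than p53-/- for these 5 genes: for Zmat3 the ranges were 4254 to 4568 in MyoD-/-, 973 to 1689 in p53-/- and 4732 to 5601 in wild type.

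The remaining higher targets were Ptp4a3, Dusp1, Mgmt, Btg2, Plk2, Ckap2, Ctsd, Ercc5, Ei24 and Apaf1, with log2 fold changes of 0.66 to 2.82. Dusp1, a phosphatase of MAP kinases, had 4508, 14260 and 17340 in MyoD-/- and 1109, 1210 and 2424 in p53-/- (2.75, SE 0.48, adjusted p = 0.00415). Wild type at 2210 to 4638 was nearer p53-/-, unlike for the genes above. Second probe sets of Dusp1 and Ercc5 gave 0.67 and -0.51 and were not called. The 5 lower members of the list included Tigar, which lowers glycolytic flux, Gadd45a, a growth arrest and DNA damage gene, and Igfbp3, an IGF-binding protein. The others were Cdkn2a, the gene for p16Ink4a and p19Arf, and Ccng2, cyclin G2. The counts do not separate genes that p53 turns on from other members of the list. The Igfbp3 call was lost in 6 of the 20 alternative settings. Gadd45a had 810, 877 and 1302 in MyoD-/- and 2439, 2547 and 2488 in p53-/- (-1.29, SE 0.29, adjusted p = 0.0157), both below the 6037 to 15170 of wild type. Between 11 and 16 targets were called higher across the 20 alternative settings, and between 1 and 6 lower, with 1 lower without p53-/- C and 2 without MyoD-/- B or without p53-/- A.

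**Figure D2:**
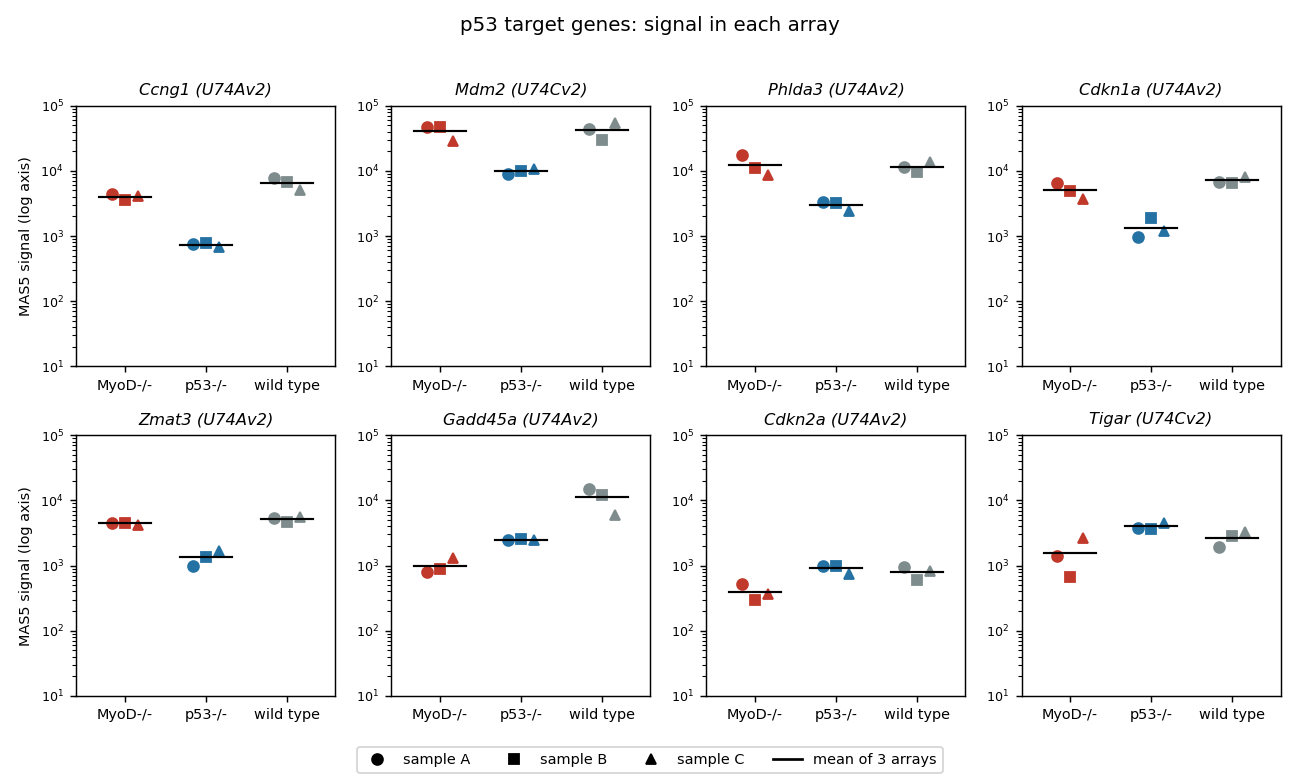
Signals of 8 genes of the p53 target list in each array, on a log axis, with MyoD-/- in red, p53-/- in blue and wild type in grey. Symbols mark samples A, B and C and bars the mean of 3 arrays. Ccng1, Mdm2, Phlda3, Cdkn1a and Zmat3 are higher in every MyoD-/- sample than in any p53-/- sample, and Gadd45a, Cdkn2a and Tigar are lower in every MyoD-/- sample.

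Cell cycle inhibitors split, with 4 higher (23.5%) and 5 lower (29.4%) of 17 tested. Beside Cdkn1a, the antiproliferative genes Btg2 and Tob1 were higher (1.18 and 1.29), with Gas2, a growth arrest gene (0.94). Cdkn2b, the gene for p15Ink4b, which blocks Cdk4 and Cdk6, had 410, 368 and 689 in MyoD-/- and 2521, 3466 and 3581 in p53-/- (-2.58, SE 0.22, adjusted p = 7.14e-05). Cdkn2a, its neighbour in the genome, had 518, 299 and 363 in MyoD-/- and 1002, 990 and 740 in p53-/- (-1.10, SE 0.23, adjusted p = 0.0103). Both genes are on chromosome 4, whose genes were lower in MyoD-/- in general, as given further on. Gas5, a noncoding RNA that hosts small nucleolar RNAs, had 2241, 2199 and 2289 in MyoD-/- and 14540, 11180 and 17350 in p53-/- (-2.62, SE 0.16, adjusted p = 8.87e-06). The MyoD-/- samples of Gas5 differed little among themselves, and wild type had 7935 to 10260. Its second probe set gave -1.04 and was not called.

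Some genes of DNA replication and mitosis were lower in MyoD-/-, though most were not called. Of 52 G1/S and DNA replication genes tested, 14 (26.9%) were lower and 2 (3.85%) higher, with a median of -0.48. Of 50 G2/M and mitosis genes, 18 (36.0%) were lower and 2 (4.0%) higher, with a median of -0.45. The changes were small: the lower members had log2 fold changes of -1.25 to -0.51. Orc6, of the complex that marks replication origins, had 3210, 2515 and 3139 in MyoD-/- and 5581, 5518 and 6095 in p53-/- (-0.95, SE 0.13, adjusted p = 0.00138). Myc, a transcription factor of growth, had 865, 1468 and 1415 in MyoD-/- and 2680, 2642 and 2951 in p53-/- (-1.13, SE 0.19, adjusted p = 0.00339). Both genes were separate between the knockouts, and wild type lay close to MyoD-/- with 2970 to 3556 for Orc6 and 1064 to 1233 for Myc.

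Among mitotic genes Ect2, which guides cytokinesis, had 3912, 3290 and 4760 in MyoD-/- and 6901, 8267 and 7097 in p53-/- (-0.90, SE 0.15, adjusted p = 0.00314). Cks2, a subunit of cyclin-dependent kinases, had 6099, 5533 and 7466 in MyoD-/- and 10220, 10680 and 10680 in p53-/- (-0.73, SE 0.12, adjusted p = 0.00376). The D-type cyclins moved in opposite directions, with Ccnd1 at 0.83 and Ccnd2 at 1.30 higher in MyoD-/- and Ccnd3, the D cyclin of differentiating muscle, at -0.86. Birc5, the gene for survivin, had 4191, 2294 and 3879 in MyoD-/- and 4901, 4348 and 5054 in p53-/- and was not called (-0.50, SE 0.21, adjusted p = 0.163). The counts of lower genes depended on single samples. Without MyoD-/- B, p53-/- A or p53-/- C in turn, 8, 6 and 8 of the G1/S genes and 11, 10 and 11 of the G2/M genes were lower.

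Among 34 DNA repair and checkpoint genes tested, 3 were lower and 1 higher in MyoD-/-, which is near the share over all genes. The lower ones were Parp1, which senses DNA breaks (-1.28, SE 0.14, adjusted p = 0.000475), Apex1, a base excision repair endonuclease (-0.90), and Rad17 (-0.69), and the higher one was Mgmt, which removes alkyl groups from guanine (1.24, adjusted p = 0.00179). The Rad17 call was lost with scan day as a block and without any 1 of the p53-/- samples, and the Apex1 call without p53-/- C. Of 32 apoptosis genes tested, 7 (21.9%) were higher and 2 (6.25%) lower, with a median of 0.17, and 4 of the higher 7 lie outside chromosomes 4 and 7. Bcl2l1, the gene for the survival factor Bcl-xL, had 7066, 7569 and 6790 in MyoD-/- and 3766, 3413 and 4583 in p53-/- (0.86, SE 0.14, adjusted p = 0.00268). Tnfrsf11b, a decoy receptor, rose by 2.68 (SE 0.30, adjusted p = 0.000418), and Apaf1, which assembles the apoptosome, by 0.66. Bcl2 was not called, with 2224, 1304 and 1413 in MyoD-/- and 1465, 1204 and 1174 in p53-/- (0.31, SE 0.20, adjusted p = 0.357).

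The list of extracellular matrix genes had mostly higher calls. Of 53 extracellular matrix genes tested, of 65 on the chips, 23 (43.4%) were higher and 1 (1.89%) lower in MyoD-/-, with a median of 0.72. Of 36 proteases and inhibitors, 19 (52.8%) were higher and 0 lower by limma, with a median of 0.65, and at an unadjusted p under 0.05 22 were higher and 1 lower. Across the 20 alternative settings the matrix list had 19 to 26 higher members and the protease list 14 to 20. The higher matrix genes covered fibrillar collagen, basement membrane, crosslinking enzymes and matricellular proteins.

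Lox, the gene for lysyl oxidase, which crosslinks collagen and elastin, had 9393, 12320 and 5006 in MyoD-/- and 332, 483 and 175 in p53-/- (4.48, SE 0.50, adjusted p = 0.000465). Ccn2, a matricellular protein also called connective tissue growth factor, had 11850, 38820 and 38790 in MyoD-/- and 767, 821 and 1318 in p53-/- (4.70, SE 0.45, adjusted p = 0.000168). Col1a1, the main chain of type I collagen, had 4808, 4827 and 5216 in MyoD-/- and 1114, 997 and 651 in p53-/- (2.38, SE 0.21, adjusted p = 8.3e-05). For each of the 3 genes the lowest MyoD-/- sample was above the highest p53-/- sample, and wild type overlapped p53-/- or lay below it, with 756 to 1147 for Col1a1. Col1a2, the other chain of type I collagen, was not called (0.16, with 1.36 from another probe set), and neither was Fn1, the gene for fibronectin (0.38).

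Sparc, a collagen-binding matricellular protein, had 21090, 20590 and 24200 in MyoD-/- and 3883, 5141 and 6383 in p53-/- (2.11, SE 0.18, adjusted p = 7.14e-05). Fbln2, the gene for fibulin-2 of basement membranes and elastic fibres, rose by 3.81 (SE 0.39, adjusted p = 0.000273), and Bgn, the proteoglycan biglycan, by 3.42 (SE 0.52, adjusted p = 0.00218). A second probe set of Fbln2 gave 1.4 and was not called. The p53-/- samples of Bgn spread widely, with 10470, 5512 and 1444, against 50650, 50910 and 42350 in MyoD-/-. The type IV collagen genes Col4a1 and Col4a2 rose by 1.45 and 1.2, and for both of them wild type was near MyoD-/- (for Col4a1 the mean signal was 9130 in MyoD-/-, 3247 in p53-/- and 10930 in wild type). The single lower gene was Lama2, the laminin chain of the muscle basement membrane, with 163, 139 and 121 in MyoD-/- and 454, 584 and 408 in p53-/- (-1.39, SE 0.20, adjusted p = 0.00163).

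Among proteases and inhibitors, Mmp3, the metalloprotease stromelysin-1, had 3471, 3150 and 1281 in MyoD-/- and 15.3, 8.51 and 87.2 in p53-/- (4.65, SE 0.42, adjusted p = 0.000106). Tfpi2, a serine protease inhibitor of the matrix, had 2405, 5937 and 1824 in MyoD-/- and 21.6, 19.5 and 30.9 in p53-/- (5.06, SE 0.42, adjusted p = 7.14e-05). The p53-/- signals of Tfpi2 are below the offset of 67.19, so the fold change is understated. Serpinb9b, of the family of serpins that block granzyme B, had the largest positive fold change of any called gene, with 1256, 50230 and 88210 in MyoD-/- and 44.1, 88.3 and 21.4 in p53-/- (6.88, SE 1.18, adjusted p = 0.00407). The sample taken as MyoD-/- A was far below B and C there, though above every p53-/- sample, and the gene is read on U74Cv2, where the letters are less certain. The list also held Timp1 and Timp3, inhibitors of metalloproteases, at 0.76 and 2.01, and Mmp13 and Mmp14 at 2.48 and 0.86.

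**Figure D3:**
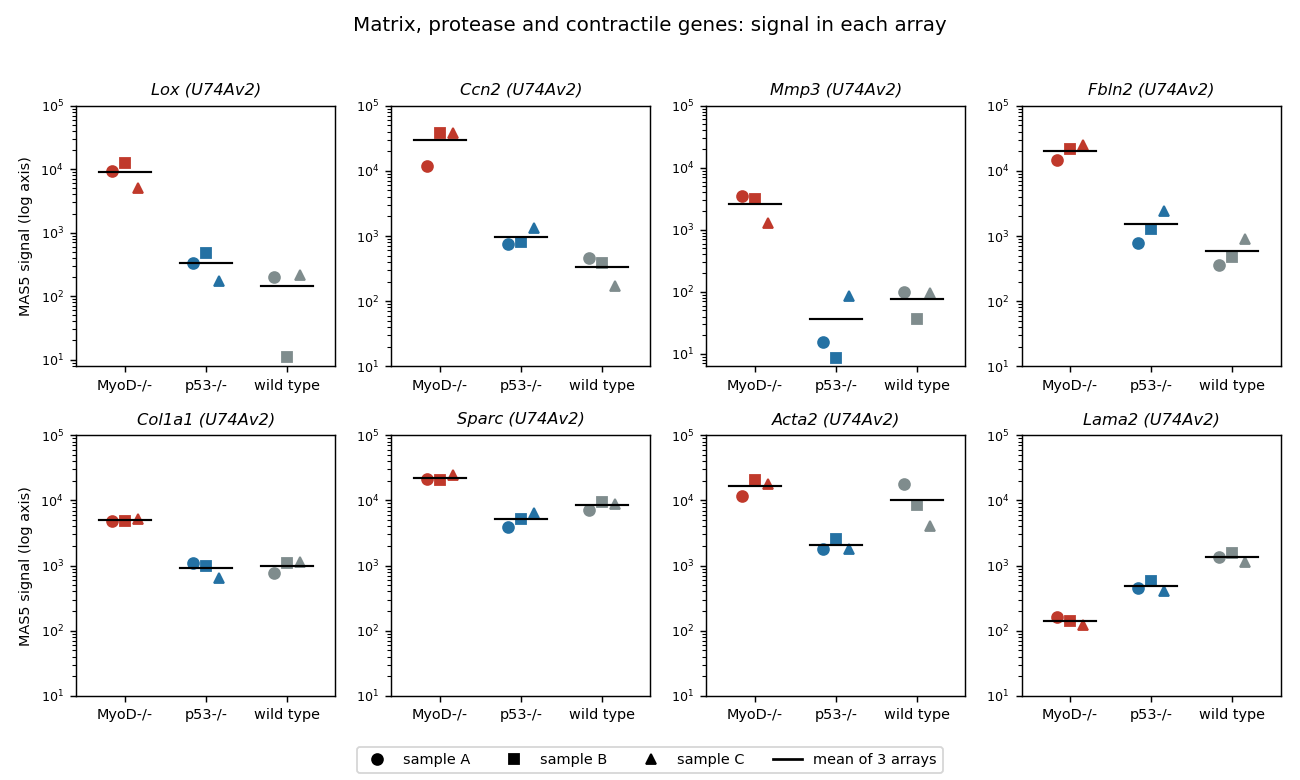
Signals of 8 matrix, protease and contractile genes in each array, on a log axis, with MyoD-/- in red, p53-/- in blue and wild type in grey; symbols mark samples A, B and C and bars the mean of 3 arrays. The first 7 genes are higher in every MyoD-/- sample than in any p53-/- sample, and Lama2 is lower, with 121 to 163 in MyoD-/- and 408 to 584 in p53-/-.

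Some markers of other mesenchymal cells were also higher in MyoD-/-, while the others were mostly not called. Of 10 fibroblast markers tested, 4 were higher and 0 lower in MyoD-/- (5 and 1 at an unadjusted limma p under 0.05), and their summed signal was 82130 to 89690 in MyoD-/-, 41770 to 62530 in p53-/- and 42370 to 52670 in wild type. The 4 were Col1a1, Gsn, Twist1 and Twist2, of which Col1a1 is also in the matrix list and Twist1 and Twist2 in the list of regulators. Of the 6 fibroblast markers not called, Pdgfra, Col3a1, Col1a2 and S100a4 had fold changes of 0.11, 0.48, 0.16 and 0.34. Another probe set of Pdgfra gave 1.21. The marker that was lower at an unadjusted limma p under 0.05 was among the rest of the 6. Of 12 smooth muscle markers 5 (41.7%) were higher, 1 (8.33%), Des, lower and 6 not called. Their summed signal was 49060 to 69660 in MyoD-/-, 29590 to 34110 in p53-/- and 37810 to 62640 in wild type. Acta2, the smooth muscle actin, had 11760, 20370 and 18050 in MyoD-/- and 1808, 2535 and 1797 in p53-/- (2.97, SE 0.42, adjusted p = 0.00141), with 4087 to 17640 in wild type, and its second probe set gave 1.42 without a call. In RNA from a whole culture, more cells of a type and more RNA per cell cannot be told apart, and the part of other cell types in the matrix genes was not tested.

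Markers of further cell types were few. Of 6 macrophage and leukocyte markers 1 was higher (Cd14) and 1 lower (Laptm5), with a summed signal of 12650 to 14210 in MyoD-/- and 11400 to 14650 in p53-/-. The 2 endothelial markers tested, Pecam1 and Eng, summed to 1437 to 1741 in MyoD-/- and 2127 to 2355 in p53-/-, and neither was called (also 0 at an unadjusted limma p under 0.05). The 2 adipocyte markers, Cebpa and Lep, summed to 4685 to 7107 in MyoD-/- and 1979 to 3811 in p53-/-, and neither was called, though 2 of 2 were higher at an unadjusted limma p under 0.05. Of 5 Schwann and neural crest markers 1 was higher (Pmp22) and 1 lower (Erbb3), with sums of 5263 to 7542 in MyoD-/- and 3322 to 4456 in p53-/-. The Laptm5 and Erbb3 calls were lost in 2 and 3 of the 20 alternative settings. The summed signals did not overlap between the knockouts for the endothelial, adipocyte and Schwann lists, and overlapped for the macrophage list. A sum can rest on 1 gene. In the Schwann list, whose median was 0.0, Pmp22 alone had 5555, 3404 and 4962 in MyoD-/- and 1737, 1626 and 721 in p53-/-. Of all single genes tested, 34.6% did not overlap. The part of these cell types in the results was not tested.

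Secreted signals changed in both directions. Of 37 growth factors and receptors tested, 9 (24.3%) were higher and 6 (16.2%) lower, beside 7.66% and 8.44% over all genes. Bdnf, a neurotrophin, had 14790, 25490 and 24210 in MyoD-/- and 3672, 3245 and 3290 in p53-/- (2.6, SE 0.20, adjusted p = 4e-05). Fgf7, keratinocyte growth factor, rose by 3.32 (SE 0.36, adjusted p = 0.000418), and Ereg, the EGF receptor ligand epiregulin, by 3.63 (SE 0.42, adjusted p = 0.000514). Lower genes included Gas6, a ligand of Axl family receptors (-1.83), the receptor gene Erbb3 (-1.44) and the ephrin gene Efnb2 (-1.39).

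Of 33 TGF-beta and BMP signalling genes 8 (24.2%) were higher and 4 (12.1%) lower, with a median of 0.21. Tgfb1, the ligand TGF-beta 1, had 3398, 4089 and 1448 in MyoD-/- and 288, 469 and 470 in p53-/- (2.58, SE 0.36, adjusted p = 0.00128). The genes for the secreted antagonists or binders follistatin (Fst), Fstl1 and gremlin (Grem1) rose by 2.62, 2.61 and 2.22, and Inhba, the activin subunit, by 2.18. Every MyoD-/- sample of Tgfb1 was above every p53-/- sample. Of 10 genes of the insulin-like growth factor axis 3 (30.0%) were higher and 1 (10.0%) lower, and Igf2r, the receptor that clears IGF2, rose by 1.77 (SE 0.14, adjusted p = 4.12e-05). Igf2 overlapped, with 7926, 8179 and 3841 in MyoD-/- and 1745, 4777 and 893 in p53-/- (1.64, SE 0.48, adjusted p = 0.0481), and its call was lost in 14 of 20 alternative settings.

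Imprinted genes, which in at least some tissues are read from 1 parental copy, held some of the strongest changes of both signs. Of 23 tested, 7 (30.4%) were higher and 3 (13.0%) lower, and from which copies they were read here was not tested. Mest, a paternally expressed gene of mesoderm, had 139, 146 and 177 in MyoD-/- and 2195, 1581 and 1585 in p53-/- (-3.05, SE 0.19, adjusted p = 8.87e-06). Peg3, a paternally expressed zinc finger gene, had 720, 365 and 1006 in MyoD-/- and 2450, 10520 and 10620 in p53-/- (-3.20, SE 0.51, adjusted p = 0.00273). Wild type was above both knockouts for each, at 14260 to 20820 for Mest and 24920 to 37610 for Peg3. Ndn, the gene for necdin, went the other way, with 8550, 6413 and 5188 in MyoD-/- and 173, 458 and 1246 in p53-/- (3.60, SE 0.63, adjusted p = 0.00429). Rasgrf1, a Ras exchange factor, had 7346, 8840 and 5282 in MyoD-/- and 237, 142 and 215 in p53-/- (4.56, SE 0.28, adjusted p = 8.87e-06), with 149 to 200 in wild type. Of the 23 genes 11 are on chromosomes 4 or 7, and without these chromosomes 3 of 12 were higher and 2 lower.

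Interferon and antigen presentation genes gave 7 higher (29.2%) and 0 lower of 24 tested by limma (9 and 0 at an unadjusted p under 0.05). Their median was 0.28, and 4 to 8 were higher across the 20 alternative settings. Irgm1, an interferon-inducible GTPase, had 1353, 1158 and 1293 in MyoD-/- and 64.0, 119 and 128 in p53-/- (2.99, SE 0.28, adjusted p = 0.000156), and Isg20, an interferon-stimulated exonuclease, had 900, 706 and 998 in MyoD-/- and 36.4, 47.5 and 51.9 in p53-/- (3.04, SE 0.31, adjusted p = 0.000238). Neither gene overlapped. Ifi47, a further interferon-inducible GTPase chosen for its fold change and not a member of the list, had 2091, 2883 and 3552 in MyoD-/- and 15, 27.2 and 9.99 in p53-/- (5.08, SE 0.39, adjusted p = 3.89e-05). Other members were not called, among them Isg15 (-0.73), Irf7 (0.31) and H2-K1 (0.19).

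Of 50 genes of the mitochondrial respiratory chain tested, 16 were lower and 1 higher in MyoD-/-, with a median of -0.33, beside 8.44% lower over all genes, and most were not called. Sdhb, a subunit of complex II, had 6392, 5258 and 5862 in MyoD-/- and 14090, 11360 and 12130 in p53-/- (-1.09, SE 0.12, adjusted p = 0.000475). Cyc1, cytochrome c1 of complex III, had 20200, 18750 and 18110 in MyoD-/- and 34320, 34800 and 28160 in p53-/- (-0.76, SE 0.10, adjusted p = 0.00115), from 1 of its 2 probe sets, while the other gave 0.03. The groups of these probe sets did not overlap, and Sdhb is on chromosome 4. The count of lower genes was 8 without MyoD-/- C, 9 without MyoD-/- B, 10 without p53-/- C and 5 without p53-/- A. Without p53-/- A fewer probe sets were called lower in general, 641 against 1068 in the reported fit. Of 30 cytosolic ribosomal protein genes 0 were called in limma's test (1 higher and 3 lower at an unadjusted p under 0.05), with a median of -0.17, and at most 1 was higher and 2 lower in any of the 20 alternative settings.

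**Figure D4:**
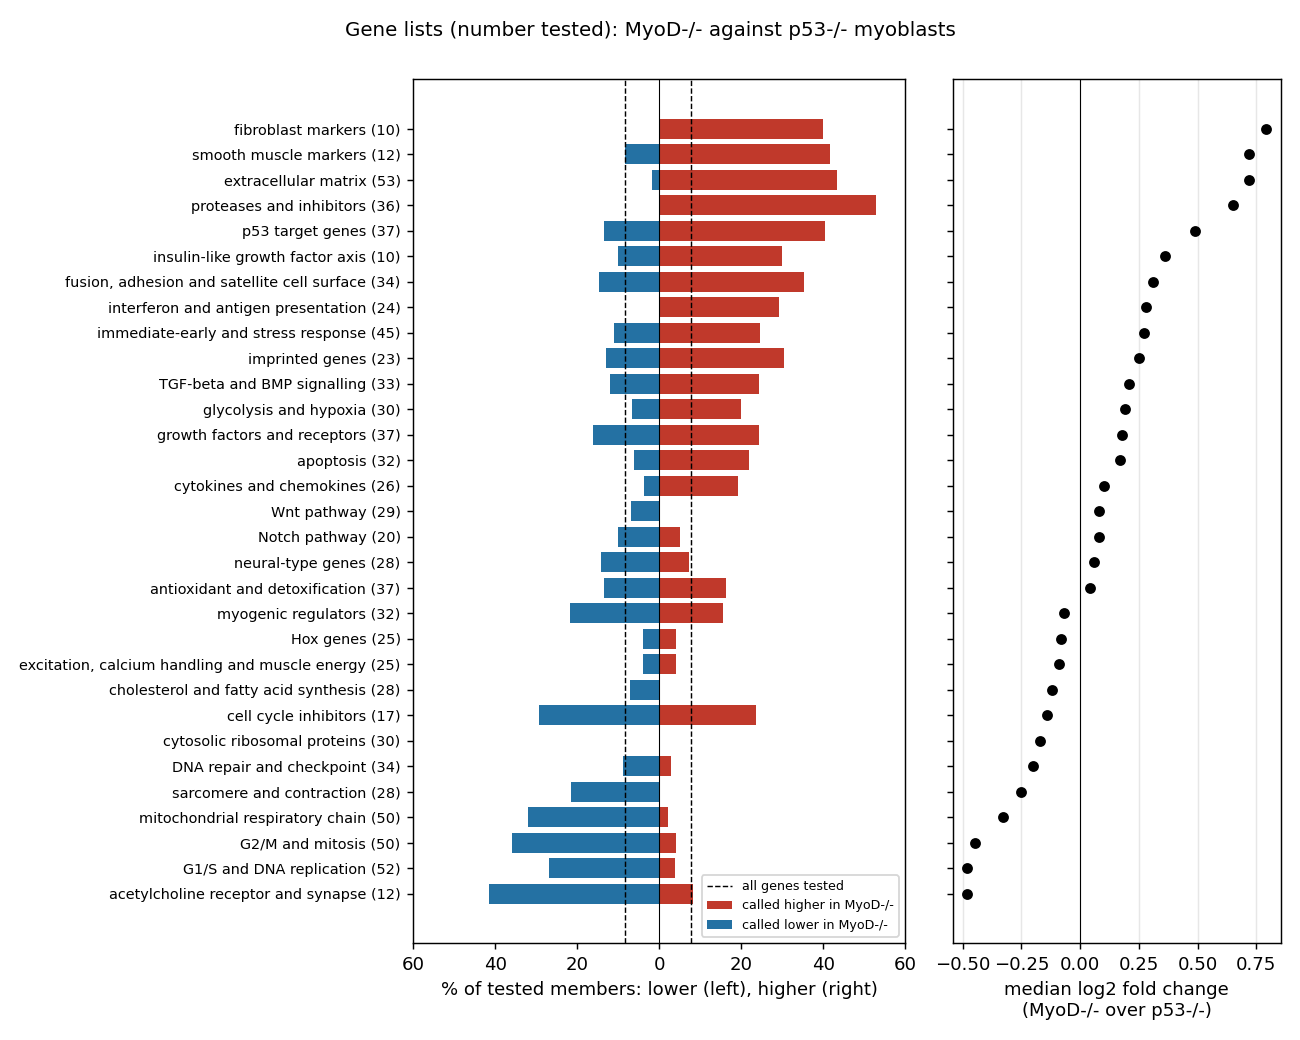
Gene lists with at least 10 genes tested (the number in brackets), from the highest median at the top to the lowest at the bottom. The left panel gives the percent of tested members called higher (red) and lower (blue) in MyoD-/- than in p53-/-, with dashed lines at 7.66% higher and 8.44% lower for all genes, and the right panel the list's median log2 fold change; fibroblast and smooth muscle markers, matrix, proteases and p53 targets lie to the right, and replication, mitosis and the acetylcholine receptor to the left.

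Some of the largest differences were in genes for which one knockout stood apart from the other and from wild type. Ano3, of the anoctamin family of membrane proteins, had 14610, 11630 and 11000 in MyoD-/- and 310, 482 and 494 in p53-/- (4.56, SE 0.21, adjusted p = 2.34e-06), and wild type had 10850 to 16600. Hoatz did the same, with 3230, 2478 and 2645 in MyoD-/- and 83.4, 121 and 34.0 in p53-/- (3.98, SE 0.24, adjusted p = 8.87e-06), and 4412 to 5681 in wild type. For both genes p53-/- was the low genotype. In Jag2, a Notch ligand, MyoD-/- was the low one, with 28.4, 24.8 and 28.8 in MyoD-/- and 1222, 622 and 1129 in p53-/- (-3.43, SE 0.24, adjusted p = 2.04e-05), and 1126 to 1206 in wild type.

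Egln3, a prolyl hydroxylase that senses oxygen, had 2701, 2769 and 3737 in MyoD-/- and 46850, 26140 and 45670 in p53-/- (-3.61, SE 0.23, adjusted p = 1.26e-05), with 44280 to 61340 in wild type. Six2, a homeobox factor, had 313, 372 and 406 in MyoD-/- and 6143, 5287 and 5759 in p53-/- (-3.75, SE 0.29, adjusted p = 4.12e-05), with 900 to 2477 in wild type between them. Ephx1, the detoxifying microsomal epoxide hydrolase, had 5777, 4106 and 2805 in MyoD-/- and 69.5, 46.8 and 42.8 in p53-/- (5.11, SE 0.35, adjusted p = 1.94e-05), with 103 to 383 in wild type. None of the 3 genes overlapped between the knockouts. Over the 379 genes at least 2-fold higher in MyoD-/-, the wild type mean on the log2 scale was nearer MyoD-/- in 148 and nearer p53-/- in 231. Over the 220 genes at least 2-fold lower it was nearer MyoD-/- in 73 and nearer p53-/- in 147, and above both knockouts in 67. Over all called genes the split was more even, nearer MyoD-/- in 293 and nearer p53-/- in 397 of the 690 higher genes, and nearer MyoD-/- in 384 and nearer p53-/- in 377 of the 761 lower genes. These placements are a description, since wild type also entered the estimate of the spread.

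The calls were unevenly spread over the chromosomes. These chromosomes were singled out after their values were seen. Of 545 genes tested on chromosome 4, 127 were lower and 17 higher in MyoD-/-, and the median log2 fold change was -0.22. Without MyoD-/- B 84 were lower and 9 higher. Of 690 genes on chromosome 7, 102 were higher and 15 lower, with a median of 0.22. On the other 18 chromosomes the medians were -0.06 to 0.09. Called genes were 26.4% of those tested on chromosome 4 and 17.0% on chromosome 7. The share was 16.1% over all genes and 9.81% to 19.4% on the other 18 chromosomes. Chromosome 7 thus stood apart by the direction of its calls and not by their share. Among the other chromosomes, calls also leaned lower on 5 (25 higher, 58 lower) and 8 (27 and 54), and higher on 9 (49 and 28). They were more even on 2 (55 and 49) and 11 (54 and 61).

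Relative to the mean of the 3 genotypes, the median level of chromosome 4 genes was -0.15, -0.17 and -0.16 on the log2 scale in MyoD-/- A, B and C, 0.10, 0.07 and 0.12 in p53-/- and 0.04, 0.08 and 0.09 in wild type. For chromosome 7 it was 0.08, 0.01 and 0.01 in MyoD-/-, -0.23, -0.15 and -0.21 in p53-/- and 0.16, 0.18 and 0.20 in wild type. So chromosome 4 was low in all MyoD-/- samples and chromosome 7 in all p53-/- samples, and neither overlapped the other knockout. Lack of overlap was not particular to them, since the knockouts also did not overlap on several other chromosomes, among them 1, 5 and 9. On the other chromosomes single knockout samples lay between -0.14 and 0.15.

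With each chromosome cut into 6 runs of equal gene number along its length, every run of chromosome 4 had more lower genes (14 to 31) than higher ones (0 to 7), with medians of -0.37 to -0.07. Every run of chromosome 7 had more higher genes (12 to 25) than lower ones (1 to 4), with medians of 0.15 to 0.26. The shift was thus spread along both chromosomes. Its medians were -0.25 on U74Av2 and -0.13 on U74Cv2 for chromosome 4, and 0.26 and 0.16 for chromosome 7. It was weaker on U74Cv2. There chromosome 4 had 34 lower and 5 higher of 215 genes, against 93 and 12 of 330 on U74Av2. Chromosome 7 had 11 higher and 5 lower of 314 genes there, against 91 and 10 of 376 on U74Av2. On a single chip type the medians of other chromosomes reached -0.12 (5 and 13 on U74Av2) and 0.11 (X on U74Cv2). Across the 20 alternative settings the medians stayed between -0.25 and -0.18 for chromosome 4 and between 0.17 and 0.24 for chromosome 7.

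Myod1 is on chromosome 7, and genes within 5 Mb of it on either side had a median of 0.18 with 10 higher and 1 lower of 86. Genes within 5 Mb of Trp53 on chromosome 11 had a median of -0.02 with 6 higher and 8 lower of 91. Without chromosomes 4 and 7, 571 of 7778 genes were higher (7.34%) and 619 lower (7.96%). Without them the p53 targets had 13 higher and 4 lower of 29, the matrix list 20 and 1 of 47, the proteases 16 and 0 of 31, the G1/S list 1 and 13 of 43, the G2/M list 1 and 13 of 40 and the respiratory chain list 0 and 14 of 45. What sets the levels of these chromosomes was not tested.

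**Figure D5:**
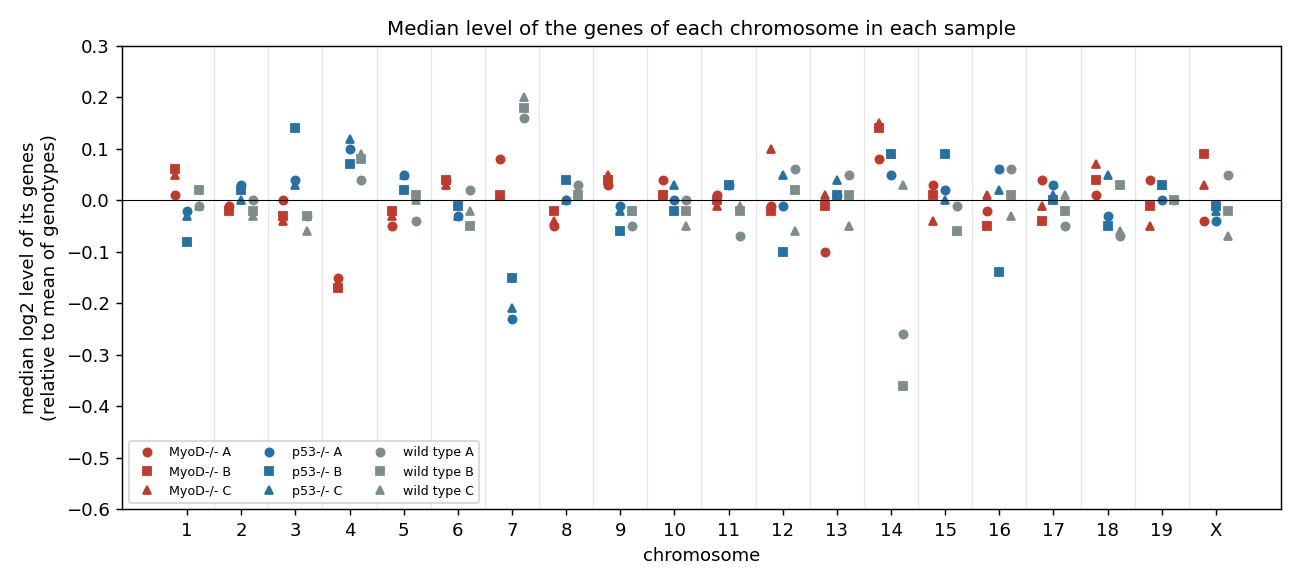
Median log2 level of the tested genes of each chromosome in each sample, relative to the mean of the 3 genotypes and to the median over all genes; MyoD-/- is red, p53-/- blue and wild type grey, and symbols mark samples A, B and C. Chromosome 4 is low in the 3 MyoD-/- samples (-0.17 to -0.15) and chromosome 7 in the 3 p53-/- samples (-0.23 to -0.15); chromosome 14 is low in wild type A and B alone.

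Xist and a Y-linked gene separated the letters within p53-/-, but not within MyoD-/-. Xist, which is made from the inactive X chromosome of females, had 2894, 3859 and 4514 in MyoD-/- and 4428, 25.7 and 21.1 in p53-/- (3.50, SE 1.64, adjusted p = 0.205, not called). Wild type A, B and C had Xist signals of 111, 6495 and 39.8, so Xist also differed widely among the wild type letters. The Y-linked gene Eif2s3y had 8.11, 37.4 and 81.5 in MyoD-/- and 24.1, 582 and 5.64 in p53-/- (adjusted p = 0.769). All MyoD-/- samples were high in Xist and low in Eif2s3y, p53-/- A was like them, p53-/- B was low in Xist and high in Eif2s3y, and p53-/- C was low in both. The Xist pattern was thus partly aligned with genotype, and its part in the comparison was not tested. Of 6 sex-linked genes tested 0 were called by limma, also 0 at an unadjusted p under 0.05, and 1 was higher when p53-/- A was left out.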

How the data were processed

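The authors deposited one value per probe set and array, a MAS5 signal intensity per the submitters' processing notes (version not given in the sources used here), scaled so that arrays share one trimmed mean. Of 24290 probe sets other than controls, 18550 had 1 gene symbol in the platform annotation, 546 several and 5194 none. Names were updated through gene IDs (18494 matched) with a RefSeq table of GRCm38.p6, which also gave gene order and promoters.

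For each chip type an offset (the 20th percentile of signals, 67.19 on U74Av2 and 106.4 on U74Cv2) was added before log2. Probe sets above the 40th percentile on at least 3 arrays were kept. limma 3.58.1 (statmod 1.5.0, R 4.3.3) was fitted to the 9 samples with a trended eBayes, and MyoD-/- minus p53-/- was tested with Benjamini-Hochberg adjustment over both chip types. The procedure was tested on simulated data. A two-sided exact permutation test of 3 against 3 cannot go below p = 0.1 for a single gene.

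Where a gene had several probe sets, the one ranking highest within its arrays on average stood for it. The naming rule took the 15 called genes with the largest fold change in each direction whose knockout arrays did not overlap. It also took up to 4 called members of each of 36 lists by smallest adjusted p, and a fixed set. The fixed set held muscle and p53 genes and also Mest, Igf2, Xist, Birc5, Col1a1 and Ccn2. Further genes in the text were picked with their values in view, and the comparison, lists and members were chosen with earlier results of these data known. Alternatives changed the offset, filter, normalization, variance trend, blocks and samples.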

Additional observations from a re-analysis of the deposited data

How the results depend on the processing

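Between MyoD-/- and p53-/-, 2045 probe sets and 1451 genes were called, and leaving out 1 sample at a time gave 1315 to 1935 probe sets (643 to 932 higher and 641 to 1003 lower) and 961 to 1386 genes. Single samples moved these counts by more than 1.5 times: without MyoD-/- B 1315 probe sets were called (643 higher, 672 lower) and 961 genes, without p53-/- A 1356 (641 lower), and without p53-/- C 1348 (649 lower) and 963 genes. Other settings gave 1648 to 2117 probe sets. Of the calls of the reported fit 60.6% or more were shared under each alternative. The letters were not used as pairs in the reported fit. The correlation of same-letter deviations was 0.128, 0.005 and 0.068 on U74Av2 and -0.013, -0.042 and 0.065 on U74Cv2. With so few arrays such values cannot decide whether the letters pair the samples. The fit with the replicate block called 1799 probe sets and 1291 genes. Of 126 called genes under the naming rule, 104 were called in every alternative that tested them, 22 were lost in at least 1, and 0 reversed. Some of the 104, such as Cd34 and Eya2, were tested in only 19 of the 20 alternatives. Dvl1, Hoxc8, Igf2, Notch1 and Ryr1 were lost in at least 10. Leaving out chromosomes 4 and 7 was chosen after seeing the data, and left 1190 called genes. Of 1238 genes read on both chip types, 272 were called on U74Av2, and 205 of these had the same sign on U74Cv2 and 57 were called the same way there (r over the 1238 genes 0.5). Low signals limit fold changes, since the offset compresses them.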

Other observations

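Several gene lists not described above had calls in both directions between MyoD-/- and p53-/-. Of 45 immediate-early and stress response genes tested, 11 were higher and 5 lower, and the median log2 fold change was 0.27. Of 30 glycolysis and hypoxia genes 6 were higher and 2 lower, among the lower Egln3. Of 37 antioxidant and detoxification genes 6 were higher and 5 lower. Gpx3, a secreted glutathione peroxidase, had 11760, 10230 and 5464 in MyoD-/- and 499, 846 and 514 in p53-/- (3.71, adjusted p = 0.00228), while its second probe set gave -0.14. Sod1 had a log2 fold change of -1.03 on U74Cv2, and its call was lost with chip lot as a block (adjusted p = 0.124).

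Of 28 neural-type genes 2 were higher and 4 lower. Stmn2, a regulator of microtubules in neurons, had 941, 643 and 724 in MyoD-/- and 4440, 4307 and 2733 in p53-/- (-2.20, adjusted p = 0.000226). Gap43, a growth cone protein, had 553, 9694 and 14720 in MyoD-/- and 192, 381 and 302 in p53-/- (3.67, adjusted p = 0.0237), with MyoD-/- A far below MyoD-/- B and C. Cytokines and chemokines had 5 higher and 1 lower of 26, the Notch pathway 1 and 2 of 20, the Wnt pathway 0 and 2 of 29, Hox genes 1 and 1 of 25, and cholesterol and fatty acid synthesis 0 and 2 of 28. Over all genes 7.66% were higher and 8.44% lower, and the counts of the Notch, Wnt, Hox and cholesterol lists are near or below those shares.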
